A study of Homo sapiens with 28 samples.

Results

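Genes of lysosome acidification, lysosomal breakdown and autophagy, the recycling of cell contents, were followed here by transcript level alone. Acidity and autophagy themselves were not measured. The 42 genes were chosen by symbol from the 58278 genes of the count table. They fall into 16 subunits of the vacuolar ATPase (V-ATPase), 16 lysosomal enzymes and membrane proteins, and 10 autophagy genes and regulators of the TFEB family. All 42 symbols matched 1 row each. The rule used gene symbols and no measured value.

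RNA-seq was done on 28 libraries of HCT116, a human colorectal carcinoma line that here carried Luciferase-GFP, a light-emitting and a fluorescent reporter. The cells were injected under the skin of 5-week-old male NOD SCID mice, which lack functional T and B cells but keep other host cells, and from 8 days after implantation the animals were gavaged daily for 23 days. The 16 in vivo libraries come from residual tumors of mice given vehicle (Control, 3 tumors), Palbociclib at 100 mg/kg/day (5 tumors), Telaglenastat at 150 mg/kg/day (4 tumors, spelled Telaglenestat in the labels), or both drugs (combination, 4 tumors). The 12 ex vivo libraries come from cultures set up from 3 dissociated tumors of each group and grown without drug, and the labels do not say which culture came from which sequenced tumor. All groups share the cell line, the reporter and the mouse strain. Palbociclib inhibits the cell-cycle kinases CDK4 and CDK6, and Telaglenastat inhibits glutaminase, the enzyme that turns glutamine into glutamate. The comparisons ask how each drug and their combination altered residual tumors, and whether a difference was still seen in cultures without drug.

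As background, the V-ATPase is a rotary proton pump. Its V1 sector, on the cytosolic side, hydrolyses ATP and turns the membrane-embedded V0 sector, which carries protons into the lysosome, so that acid hydrolases can break down proteins, lipids and glycogen. Autophagy delivers cell contents to the lysosome in vesicles coated with LC3 and GABARAP proteins, and the transcription factors TFEB and TFE3 bind a short palindromic element, the CLEAR element, in the promoters of many lysosomal and autophagy genes.

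That element gives a sequence view of the 42 genes. RefSeq windows on GRCh38.p14, from 250 bases before to 50 bases after the gene start, were at hand for 33 of the 42. The core of the element, TCACGTGA, was found in 6 of these 33 and in 0.98% of all 35116 windows in the RefSeq table. The shorter E-box CACGTG, which lies within that core, was found in 8 of the 33 and in 7.26% of all windows. Not every one of the 33 was searched, and the genes left out are named with the Telaglenastat results. They count as without a match, so 6 and 8 are lower bounds and not like-for-like with the shares of all windows. Both motifs are their own reverse complements, so that 1 search covers both strands. Of the promoters searched, the 8 with a match are shown over 100 bases, from 90 before to 10 after the start. They are shown because they include GAA, CTSD, ATP6V0D1 and MCOLN1, among the genes that changed most below. Capitals mark the core where it is complete and otherwise the E-box. The stretches, on GRCh38.p14 and read along the gene's strand, were chr1:43974870-43974969 (plus) for ATP6V0B, chr16:67481148-67481247 (minus) for ATP6V0D1, chr9:114587679-114587778 (plus) for ATP6V1G1, chr13:113297149-113297248 (plus) for LAMP1, chr20:45891245-45891344 (plus) for CTSA, chr11:1763918-1764017 (minus) for CTSD, chr17:80101491-80101590 (plus) for GAA and chr19:7522534-7522633 (plus) for MCOLN1.
ATP6V0B: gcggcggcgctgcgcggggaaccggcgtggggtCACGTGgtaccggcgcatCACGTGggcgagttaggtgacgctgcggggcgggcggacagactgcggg
ATP6V0D1: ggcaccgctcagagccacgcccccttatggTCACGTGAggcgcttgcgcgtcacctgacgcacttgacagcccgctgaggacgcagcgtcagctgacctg
ATP6V1G1: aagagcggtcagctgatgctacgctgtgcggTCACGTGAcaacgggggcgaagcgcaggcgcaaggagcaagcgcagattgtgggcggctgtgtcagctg
LAMP1: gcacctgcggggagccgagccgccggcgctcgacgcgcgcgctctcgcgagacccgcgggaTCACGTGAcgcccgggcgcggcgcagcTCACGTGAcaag
CTSA: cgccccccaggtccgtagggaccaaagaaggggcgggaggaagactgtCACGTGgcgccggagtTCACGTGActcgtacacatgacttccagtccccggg
CTSD: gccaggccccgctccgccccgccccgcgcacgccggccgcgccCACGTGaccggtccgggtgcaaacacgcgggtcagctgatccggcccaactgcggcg
GAA: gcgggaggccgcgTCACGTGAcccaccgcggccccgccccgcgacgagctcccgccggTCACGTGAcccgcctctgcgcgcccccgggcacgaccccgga
MCOLN1: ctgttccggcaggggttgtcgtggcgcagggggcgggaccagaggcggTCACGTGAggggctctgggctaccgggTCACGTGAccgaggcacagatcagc
LAMP1, GAA and MCOLN1 each carried 2 copies of the core in these 100 bases. A match describes letters in a window and was not tested as a binding site.

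Libraries held between 6273834 and 10617936 counts in tumors and between 7198540 and 13815675 in cultures. Tumor libraries of the groups also differed in how counts depended on gene GC content. The slope of each library's deviation from the mean of all tumor libraries, in log2 units per SD of GC content (taken from the longest transcript of each gene), averaged 0.253 in the 3 Control tumors and 0.284 in the 5 Palbociclib tumors, against -0.337 in the 4 Telaglenastat tumors and -0.208 in the 4 combination tumors. Within Palbociclib, tumor 2 had the lowest slope, at 0.0968. Among cultures the slope ran from -0.132 to 0.178 apart from Telaglenastat culture 2, at 0.418. Changes are therefore given as counted and, where it matters, after a correction that removes from each library a smooth trend over all genes on GC content and length. By its construction this correction also removes any change in expression that happens to follow GC content. Gene GC content had a median of 45.89% over the V-ATPase subunits, 52.05% over the lysosomal genes and 50.61% over the autophagy genes, beside 48.04% over all genes tested in tumors.

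Markers of other cells were also read, because xenografts hold mouse macrophages, fibroblasts and vessels and the handling of mouse reads is not given in the sources used here. The summed level of 14 macrophage and leukocyte markers, in CPM (counts scaled to the total of each library), was 17.1 to 22.5 in Control tumors, 24.3 to 34.1 with Palbociclib, 4.56 to 11.8 with Telaglenastat and 10.01 to 17.5 with the combination, and TYROBP, C1QA, C1QB and C1QC were at 0 in all tumors. Most of that sum came from CD68, itself a lysosomal membrane protein, and LYZ, the lysozyme gene. Mean CD68 was 10.99 CPM in Control, 18.1 CPM in Palbociclib, 2.20 CPM in Telaglenastat and 3.67 CPM in combination tumors, and mean LYZ was 3.58, 6.88, 2.80 and 6.45 CPM in the same order. CSF1R, a growth factor receptor of macrophages, was instead 2.69 to 5.09 CPM in Control, 1.01 to 2.83 CPM in Palbociclib, 0.304 to 1.67 CPM in Telaglenastat and 0.994 to 2.68 CPM in combination tumors, so it was not among the markers behind the higher sum with Palbociclib. The 12 fibroblast and endothelial markers summed to 241.0 to 291.3, 201.4 to 286.4, 69.4 to 85.3 and 140.9 to 219.6 CPM in the same order. Most of this came from COL1A1, SPARC, COL3A1 and COL1A2. LUM and the endothelial gene CDH5 were at 0 in all tumors, and the endothelial genes PECAM1, VWF and KDR had group means of at most 1.12 CPM. Mean COL1A1 was 119.3, 117.7, 25.6 and 61.8 CPM and mean COL3A1 36.3, 31.2, 19.4 and 39.3 CPM in the same order. Colorectal epithelial markers (10 genes) summed to 2817 to 3363 CPM in Control, 3094 to 4323 CPM in Palbociclib, 1510 to 1729 CPM in Telaglenastat and 2285 to 2524 CPM in combination tumors, with CDX1 at 0. The keratins carried this difference, with mean KRT8 at 1205 CPM in Control and 469.6 CPM in Telaglenastat tumors. In the same groups mean EPCAM was 422.2 and 482.4 CPM and mean CDH1 was 169.1 and 168.2 CPM. All 3 sums were thus lowest in Telaglenastat tumors, and their part in the changes of the lysosomal genes was not tested. In such bulk samples fewer cells of a type and less RNA per cell cannot be told apart. The marker values are as counted, without the GC and length correction, and the part of the GC slopes in them was not tested either.

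In Control tumors the 42 genes spanned more than 2 orders of magnitude in TPM, a share of all transcripts that divides counts by gene length. PSAP, the precursor of the saposins that assist sphingolipid breakdown, was highest at 696 ± 15.99 TPM (SD, n = 3). Next came the V1 subunit ATP6V1G1 at 236 ± 19.98, the V1 subunit ATP6V1F at 186 ± 15.02, the V0 subunit ATP6V0E1 at 184 ± 13.2 and the carboxypeptidase CTSZ at 178 ± 13.2 TPM. These last 3 did not differ beyond their spread. Within the pump levels were uneven, down to 6.16 ± 0.404 TPM for ATP6V0A2, one of the V0 a-subunit isoforms. Cargo receptor SQSTM1 (p62) at 88.1 ± 3.57 and the vesicle protein MAP1LC3B at 85.5 ± 7.10 TPM led the autophagy genes, whereas ULK1, the kinase that starts autophagy, stood at 6.00 ± 0.93 TPM. The lysosomal calcium channel MCOLN1 (5.14 ± 0.921 TPM) and TFEB (1.57 ± 0.0645 TPM) were lowest, and TFEB rested on only 19 to 24 reads per Control tumor, which limits what its values can show. In GENCODE 29 on GRCh38, which gives the exons over which lengths were taken, NPC2 lies at chr14:74476192-74494177 on the minus strand, CTSD at chr11:1752752-1764573 on the minus strand, GAA at chr17:80101556-80119879 on the plus strand, ATP6V0D1 at chr16:67438014-67481237 on the minus strand, SQSTM1 at chr5:179806398-179838078 on the plus strand and TFEB at chr6:41683978-41736259 on the minus strand. MAP1LC3B and GABARAPL1 each have a near-identical copy in the genome (MAP1LC3B2 and GABARAPL3), so that their reads may be split between copies.

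**Figure D1:**
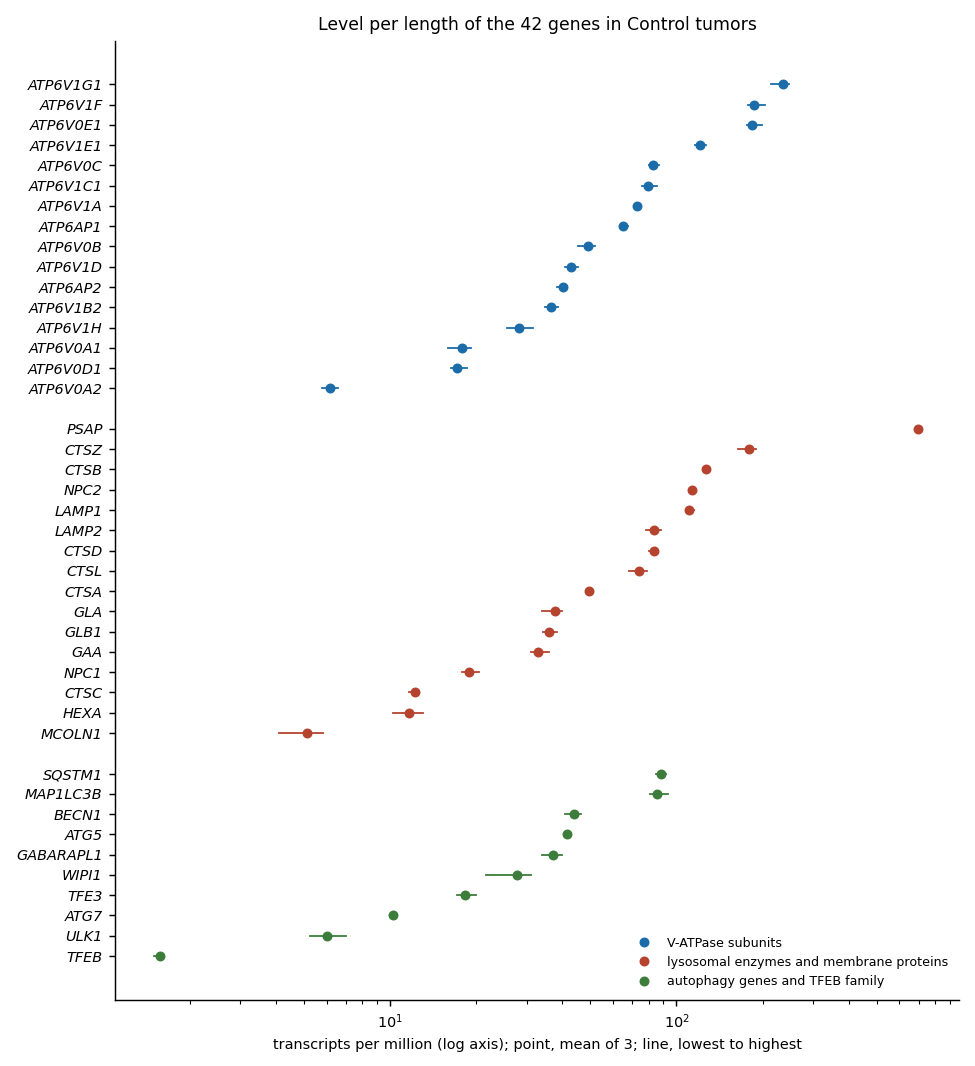
Level of each of the 42 genes in the 3 Control tumors, in TPM on a log axis, with V-ATPase subunits, lysosomal genes and autophagy genes set apart. Points are means and lines run from the lowest to the highest tumor. PSAP lies highest (696 TPM) and TFEB lowest (1.57 TPM).

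Palbociclib alone raised 4 of the 42 genes in residual tumors and lowered none. The 3 clearest were lysosomal. NPC2, the soluble protein that hands cholesterol out of the lysosome, was 87.9, 93.7 and 89.7 CPM in Control and 137, 184, 105, 136 and 134 CPM in Palbociclib tumors. All 5 treated tumors lay above all 3 Control tumors (log2 fold change 0.62 ± 0.12 (SE), adjusted p = 0.00184). HEXA, a hexosaminidase subunit that degrades gangliosides, went from 46.6, 38.1 and 42.2 to 54.2, 58.9, 56.05, 61.4 and 50.5 CPM (log2 fold change 0.41 ± 0.099, adjusted p = 0.014). PSAP went from 629, 656 and 672 to 849.6, 728, 885, 864 and 815 CPM (log2 fold change 0.35 ± 0.065, adjusted p = 0.00198). For both genes every Palbociclib tumor again exceeded every Control tumor. The fourth gene, BECN1, a subunit of the lipid kinase complex that nucleates autophagosomes, rose too (log2 fold change 0.25 ± 0.073, adjusted p = 0.049), but its call was lost in 14 of the 16 fits that left out 1 library. HEXA lost its call without Control tumor 2 or Control tumor 3, and the count of genes called higher fell to 2 without Control tumor 3.

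These 4 of 42 stand beside 2.55% of all 14848 genes tested that were called higher by edgeR's quasi-likelihood test (adjusted p under 0.05) and 3.6% that were called lower. The median log2 fold change over the 42 genes was 0.12, against 0.00 over all genes. Without Palbociclib tumor 2, which has the low GC slope, 7 of the 42 were called higher and 1 lower. The GC and length correction left the same number of calls in this comparison, beside 555 higher and 598 lower of all 14848 genes, and NPC2 at 0.63.

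No call was made for the other genes followed in detail. CTSD, the main lysosomal aspartic protease, was 75.1, 73.6 and 77.3 CPM in Control and 104, 59.7, 94.7, 134 and 109 CPM in Palbociclib tumors (log2 fold change 0.42 ± 0.17, adjusted p = 0.163), with Palbociclib tumor 2 below and the other 4 above the Control tumors. SQSTM1 showed the same arrangement, at 199, 199 and 188 CPM against 251, 150.4, 268, 227 and 216 CPM (0.19 ± 0.12, adjusted p = 0.441). LAMP1, an abundant glycoprotein of the lysosomal membrane, was 187, 185 and 179 against 211, 190.2, 201, 193 and 197 CPM (0.11 ± 0.060, adjusted p = 0.348). TFE3 was 24.1, 22.2 and 21.3 against 22.8, 25.5, 24.5, 34.6 and 27.8 CPM (0.26 ± 0.13, adjusted p = 0.316) and TFEB 2.58, 2.66 and 2.45 against 3.12, 2.50, 3.87, 3.70 and 2.21 CPM (0.27 ± 0.45, adjusted p = 0.839), with overlapping groups for both factors. None of the 16 V-ATPase subunits passed the test.

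Telaglenastat tumors differed from Control far more widely. Of the 42 genes, 10 were higher and 19 lower, beside 22.6% of all genes higher and 28.5% lower, so that the share of higher members (10 of 42) was near the background. The median log2 fold change was -0.17 over the 42 genes and 0.03 over all genes. After the GC and length correction 7 were higher and 7 lower, beside 952 and 1243 of all 14848 genes. As counted 6 were higher without Control tumor 3, Telaglenastat tumor 2 or Telaglenastat tumor 3. Across the 42 genes the fold change as counted correlated with gene GC content at r = -0.83, a description over genes that share the same libraries, and at r = -0.02 after the correction.

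**Figure D2:**
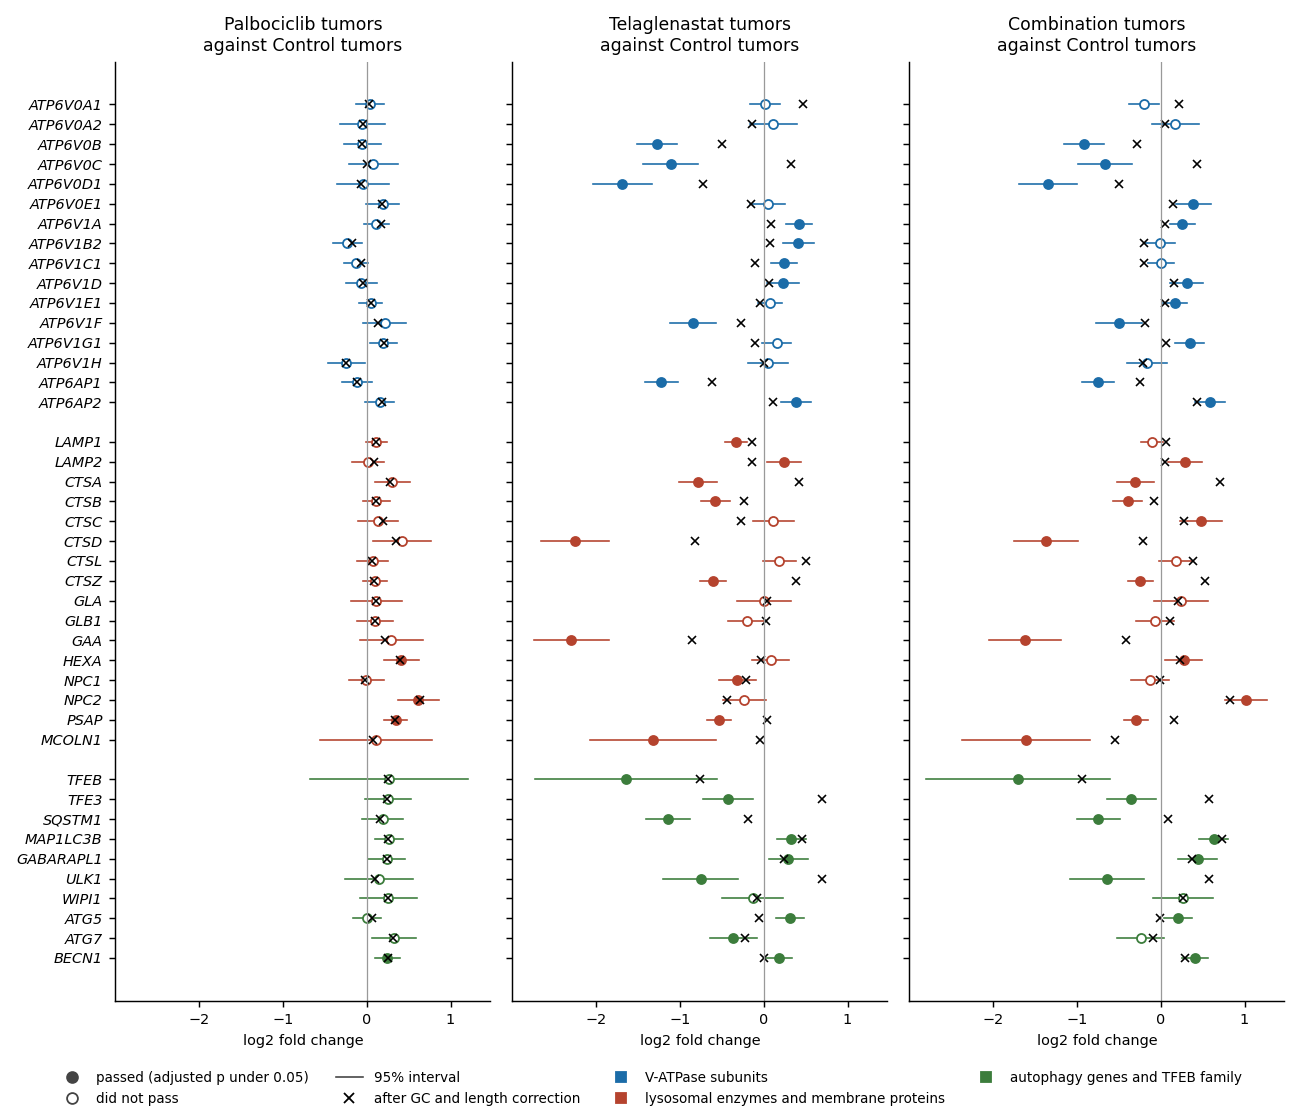
Log2 fold change of each of the 42 genes against Control tumors for Palbociclib, Telaglenastat and the combination, with 95% intervals. Filled points passed the test and crosses give the value after the GC and length correction, which lies nearer to 0 than the point for most genes that fell, such as GAA (-2.29 as counted, -0.85 corrected, with Telaglenastat) and turns sign for some, such as CTSA (-0.78 and 0.42).

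Within the V-ATPase the sectors were read apart, and a contrast between them was not tested. As counted, of the 6 V0 genes, 3 fell and none rose, and of the 8 V1 genes, 4 rose and 1 fell. Over all genes 28.5% were lower and 22.6% higher. GC content was 56.46% to 63.57% in the V0 genes that fell and 39.74% to 45.2% in the V1 genes that rose. ATP6V1F, the V1 gene that fell, had 54.29%. ATP6V0D1, the d subunit that couples the rotor to the V0 ring, dropped from 38.4, 39.5 and 44.1 CPM to 12.5, 15.9, 9.87 and 12.2 CPM, with no overlap between the groups (log2 fold change -1.69 ± 0.17, adjusted p = 1.3e-07). The ring subunits ATP6V0B and ATP6V0C fell too, with log2 fold changes of -1.27 and -1.11. After correction ATP6V0D1 (-0.73 ± 0.13, adjusted p = 0.000484) and ATP6V0B (-0.49) remained called, and ATP6V0C turned to 0.33 without a call. ATP6V0A1, an a-subunit isoform that was level as counted (0.016), was called higher at 0.47.

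On the V1 side, ATP6V1A, which carries the catalytic site, was 104, 111 and 109.9 CPM in Control and 136, 148, 149 and 144 CPM in Telaglenastat tumors (log2 fold change 0.42 ± 0.074, adjusted p = 9.71e-05). Its partner in the ATP-hydrolysing ring, ATP6V1B2, was 81.3, 79.7 and 87.3 and 106, 111, 117 and 108 CPM (0.42 ± 0.087, adjusted p = 0.000552). Both groups were again separate in every library. ATP6V1C1 (0.24) and ATP6V1D (0.23) also rose and ATP6V1F (-0.84) fell, but after correction none of the 8 V1 genes was called, ATP6V1A standing at 0.092 and ATP6V1C1 turning to -0.10. The accessory subunits split. ATP6AP2, also known as the prorenin receptor, rose from 112, 108 and 114 to 154, 133, 147 and 146 CPM (0.39 ± 0.086, adjusted p = 0.000909, corrected 0.11 with the call lost). ATP6AP1 fell with no overlap, at 93.4, 92.5 and 89.98 against 40.4, 32.9, 43.4 and 41.1 CPM (-1.22), and was still called after correction at -0.62.

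Among lysosomal genes 9 of 16 fell and 1 rose, beside 28.5% and 22.6% of all genes. GAA, the acid alpha-glucosidase that degrades glycogen in the lysosome, showed the largest fall of the 42 genes, from 52.3, 47.8 and 46.6 CPM to 12.8, 7.94, 8.35 and 10.9 CPM (log2 fold change -2.29 ± 0.22, adjusted p = 6.61e-08). CTSD fell from 75.1, 73.6 and 77.3 to 20.7, 15.2, 13.8 and 13.5 CPM (-2.25 ± 0.19, adjusted p = 3.03e-08). No Telaglenastat tumor came near a Control tumor in either gene. The correction reduced both falls but left them called, GAA at -0.85 ± 0.14, adjusted p = 0.000175 and CTSD at -0.82 ± 0.14, adjusted p = 0.000396. LAMP1 fell from 187, 185 and 179 to 145, 138, 149 and 153 CPM (-0.33 ± 0.063, adjusted p = 0.000212) and to -0.14 ± 0.063, adjusted p = 0.159 after correction. The other falls as counted were MCOLN1 (-1.32), the protective protein CTSA (-0.78), the peptidases CTSZ (-0.60) and CTSB (-0.58), PSAP (-0.54) and the membrane cholesterol transporter NPC1 (-0.31). The membrane glycoprotein LAMP2 rose (0.25) and turned sign after correction. Correction turned CTSA (0.42) and CTSZ (0.39) into rises that were called, made CTSL a called rise (0.51) and NPC2 a called fall (-0.44), and left MCOLN1 at -0.042 and PSAP at 0.040.

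Both TFEB family genes were lower as counted. TFEB went from 2.58, 2.66 and 2.45 to 1.52, 1.11, 0.304 and 0.298 CPM (-1.64 ± 0.52, adjusted p = 0.0128), on 2 to 10 reads per Telaglenastat tumor. TFE3 went from 24.1, 22.2 and 21.3 to 16.7, 18.2, 17.3 and 14.9 CPM (-0.43 ± 0.14, adjusted p = 0.0162), a call that was lost without Control tumor 1. After correction TFEB was not called (-0.75 ± 0.50, adjusted p = 0.373) and TFE3 was called in the opposite direction (0.70 ± 0.15, adjusted p = 0.0027). SQSTM1, whose protein carries ubiquitinated cargo into autophagosomes, fell from 199, 199 and 188 to 86.3, 85.5, 87.9 and 94.8 CPM with separate groups (-1.14 ± 0.13, adjusted p = 3.79e-07), and stood at -0.19 ± 0.096, adjusted p = 0.227 after correction. MAP1LC3B, the source of LC3, rose from 123, 146 and 125 to 179.9, 150.1, 168 and 163 CPM (0.33 ± 0.084, adjusted p = 0.0028), and this rise was called after correction too, at 0.45. ATG5, of the conjugation machinery for LC3 (0.31), GABARAPL1, a relative of LC3 (0.29), and BECN1 (0.18) rose, whereas ULK1 (-0.75) and ATG7, the enzyme that activates LC3 for conjugation (-0.36), fell. After correction the rises of ATG5, GABARAPL1 and BECN1 were not called, and ATG5 turned sign. BECN1 lost its call in 14 of 16 fits without 1 library. ULK1 turned to a called rise of 0.69 after correction.

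Of the 6 genes in which the complete CLEAR core was found, 5 fell as counted (ATP6V0D1, LAMP1, CTSA, GAA and MCOLN1), beside 28.5% of all genes. ATP6V1G1 stood at 0.16 without a call. GC content was 51.24% to 64.12% in the 5 genes that fell and 42.04% in ATP6V1G1. The part of the motif in these changes was not tested. Windows of ATP6V1B2, ATP6V1C1, ATP6V1H and CTSB were not searched for it, so whether these genes carry the core is not known here. After correction ATP6V0D1 and GAA were lower, CTSA was higher and the other 3 were not called.

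**Figure D3:**
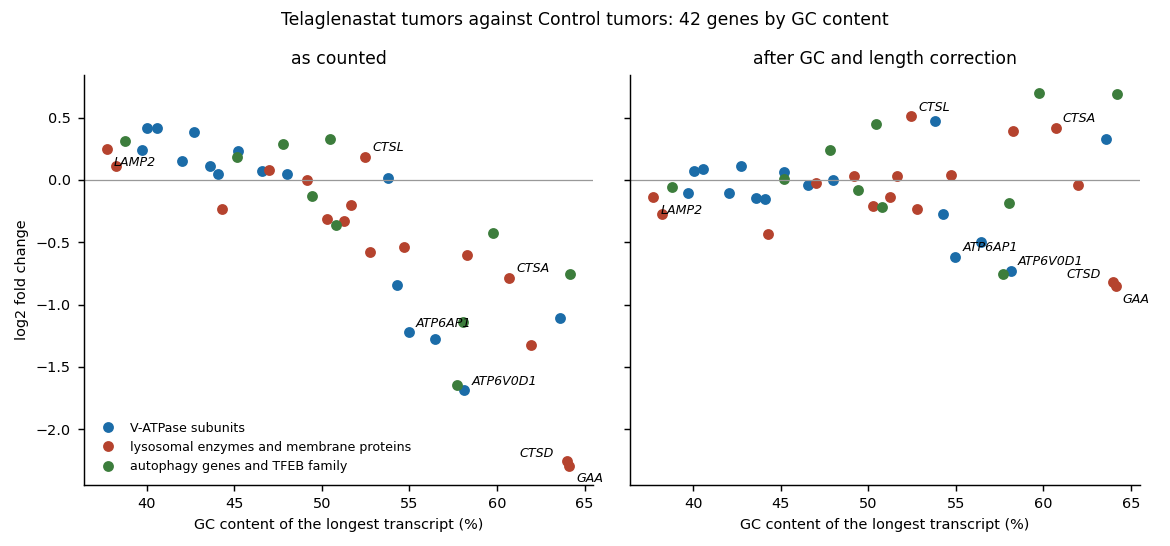
Log2 fold change of the 42 genes in Telaglenastat against Control tumors, plotted against the GC content of each gene (%), as counted and after the GC and length correction. As counted the points slope downward with GC content (r = -0.83), with GAA and CTSD lowest, and after correction they do not (r = -0.02).

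With both drugs, 14 of the 42 genes were higher and 16 lower than in Control tumors, beside 17.6% and 26.9% of all genes. The members' median log2 fold change was -0.08 and that of all genes -0.04. After correction 12 were higher and 6 lower, beside 1974 and 1940 of all 14848 genes, so that the share of lower members was near the background. The Control tumors are those of the comparisons above. The most marked rise was in NPC2, which reached 178, 196, 184 and 176 CPM against 87.9, 93.7 and 89.7 CPM in Control (log2 fold change 1.02 ± 0.12, adjusted p = 1.46e-06), and it was called after correction as well (0.83). MAP1LC3B rose to 212, 212, 192 and 199.6 CPM (0.63 ± 0.084, adjusted p = 5.1e-06, corrected 0.73) and ATP6AP2 to 174, 167, 164 and 161 CPM (0.59 ± 0.086, adjusted p = 1.59e-05, corrected 0.44). In all 3 genes each combination tumor exceeded each Control tumor.

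Lysosomal genes and TFEB were again among the largest falls. GAA was 14.3, 16.1, 16.5 and 16.96 CPM (-1.61 ± 0.21, adjusted p = 3.13e-06, corrected -0.41 and still called), MCOLN1 was 1.91, 1.49, 1.28 and 2.98 CPM against 6.51, 4.76 and 6.33 in Control (-1.61 ± 0.37, adjusted p = 0.00133, corrected -0.55 and not called), and TFEB was 0.318, 0.448, 1.28 and 1.04 CPM (-1.70 ± 0.53, adjusted p = 0.0123, corrected -0.94 and not called). CTSD fell to 26.4, 32.99, 28.5 and 28.9 CPM (-1.37 ± 0.18, adjusted p = 5.63e-06), which became -0.21 ± 0.13, adjusted p = 0.277 after correction. SQSTM1 fell to 110.2, 122, 114 and 119 CPM (-0.74 ± 0.12, adjusted p = 6.24e-05), and to 0.086, on the other side of 0, after correction. TFE3 was 15.4, 19.9, 16.9 and 18.6 CPM (-0.35 ± 0.14, adjusted p = 0.0489), with the call lost in 11 of 16 fits that left out 1 library and a called rise after correction (0.58). LAMP1, at 179.5, 177, 165 and 165 CPM, overlapped Control and was not called (-0.098 ± 0.063, adjusted p = 0.222).

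By role, 6 of the 16 V-ATPase genes were higher and 5 lower as counted, beside 17.6% and 26.9% of all genes. The number of lower V-ATPase genes was thus near the background. Those lower were ATP6V0D1 (-1.34), ATP6V0B (-0.91), ATP6AP1 (-0.75), ATP6V0C (-0.66) and ATP6V1F (-0.50). ATP6V0E1 (0.39), ATP6V1G1 (0.35), ATP6V1D (0.31), ATP6V1A (0.26) and ATP6V1E1 (0.17, called in only 4 of 16 fits without 1 library) joined ATP6AP2 above Control. After correction ATP6V0C was called higher (0.43). Of the 16 lysosomal genes 4 were higher, adding the dipeptidyl peptidase CTSC (0.48), LAMP2 (0.29) and HEXA (0.28) to NPC2, and 7 were lower, adding CTSB (-0.39), CTSA (-0.30), PSAP (-0.29) and CTSZ (-0.24) to those above. CTSA (0.71), PSAP (0.16) and CTSZ (0.53) were called higher after correction. Among autophagy genes GABARAPL1 (0.44), BECN1 (0.41) and ATG5 (0.21, with its sign turned after correction) rose with MAP1LC3B, and ULK1 (-0.64, corrected 0.58) fell with SQSTM1, TFEB and TFE3. Of all genes called in this comparison 39.53% were higher, a share that was 51.08% in 1 fit of all 28 libraries and 50.43% after correction.

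Set against Palbociclib alone, 9 of the 42 genes were higher and 19 lower with the combination, beside 20.1% and 27.5% of all genes. The share of higher members (9 of 42) was thus near the background. After correction 6 were higher and 6 lower, beside 1091 and 1192 of all 14848 genes. This comparison shares the combination tumors with the last one. ATP6AP2 exceeded all 5 Palbociclib tumors, at 110.1, 144, 116, 134 and 114 CPM there (0.43 ± 0.074, adjusted p = 9.12e-05, corrected 0.26). NPC2 was higher (0.40 ± 0.10, adjusted p = 0.00317), though Palbociclib tumor 2 overlapped the combination, and the call was lost after correction. ATP6V1D, of the central V1 stalk, was 70.8, 68.4, 67.7 and 55.04 CPM against 47.8, 48.2, 53.9, 52.8 and 49.99 CPM (0.37 ± 0.081, adjusted p = 0.000842, call lost after correction). The largest falls were in TFEB (-1.97 ± 0.48, adjusted p = 0.00222, call lost after correction), GAA (-1.91 ± 0.19, adjusted p = 1.37e-07, corrected -0.63) and CTSD (-1.78 ± 0.17, adjusted p = 9.04e-08, corrected -0.55), and none of these groups overlapped. SQSTM1 (-0.94 ± 0.11, adjusted p = 1.24e-06), TFE3 (-0.61 ± 0.12, adjusted p = 0.000508) and LAMP1 (-0.21 ± 0.056, adjusted p = 0.0041) were also lower as counted, and none of the 3 was called after correction. Of all genes called, 42.3% were higher, and 54.87% in 1 fit of all 28 libraries, where 17 of the 42 genes were called higher.

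Set against Telaglenastat alone, the group whose GC slope was nearest to its own, the combination had more rises than falls, as 15 of the 42 genes were higher and 2 lower, beside 8.93% and 9.89% of all genes. After correction 12 were higher and 2 lower, beside 1270 and 1076 of all 14848 genes. The median over the 42 genes was 0.19 as counted and 0.16 corrected, against 0.02 and 0.01 over all genes. NPC2 was 178, 196, 184 and 176 CPM against 80.7, 72.04, 81.4 and 74.7 CPM (log2 fold change 1.25 ± 0.11, adjusted p = 2.71e-07), and the correction left the change at 1.26. CTSD was 26.4, 32.99, 28.5 and 28.9 CPM against 20.7, 15.2, 13.8 and 13.5 CPM (0.89 ± 0.20, adjusted p = 0.00338, corrected 0.61). GAA was 14.3, 16.1, 16.5 and 16.96 against 12.8, 7.94, 8.35 and 10.9 CPM (0.68 ± 0.22, adjusted p = 0.0373, corrected 0.44), a call that was lost without any of 6 single libraries, Telaglenastat tumor 2, 3 or 4 or combination tumor 2, 3 or 4. In all 3 genes every combination tumor lay above every Telaglenastat tumor, and for CTSD and GAA every one lay below every Control tumor.

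SQSTM1 (0.39 ± 0.12, adjusted p = 0.0257) and LAMP1 (0.23 ± 0.059, adjusted p = 0.00858) were higher with the combination, and TFE3 (0.075 ± 0.14, adjusted p = 0.76) and TFEB (-0.058 ± 0.56, adjusted p = 0.959) were not called, with 95% intervals of -0.21 to 0.36 and -1.22 to 1.10 for their log2 fold changes. The other rises, between 0.23 and 0.48, were in CTSA, ATP6AP1, ATP6V0C, CTSC, ATP6V0B, CTSZ, ATP6V0E1, MAP1LC3B, PSAP and BECN1. The 2 falls were in V1 genes, ATP6V1B2 at 89.3, 85.4, 77.5 and 77.2 against 106, 111, 117 and 108 CPM (-0.42 ± 0.081, adjusted p = 0.00104, corrected -0.27) and ATP6V1C1, of the V1 stator, at 143, 148, 129 and 119.9 against 153, 163, 165 and 156 CPM (-0.24 ± 0.068, adjusted p = 0.0171, call lost after correction). The count of genes higher was 9 without combination tumor 2 and 6 in 1 fit of all 28 libraries, and the count lower was 1 without combination tumor 3 or combination tumor 4.

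**Figure D4:**
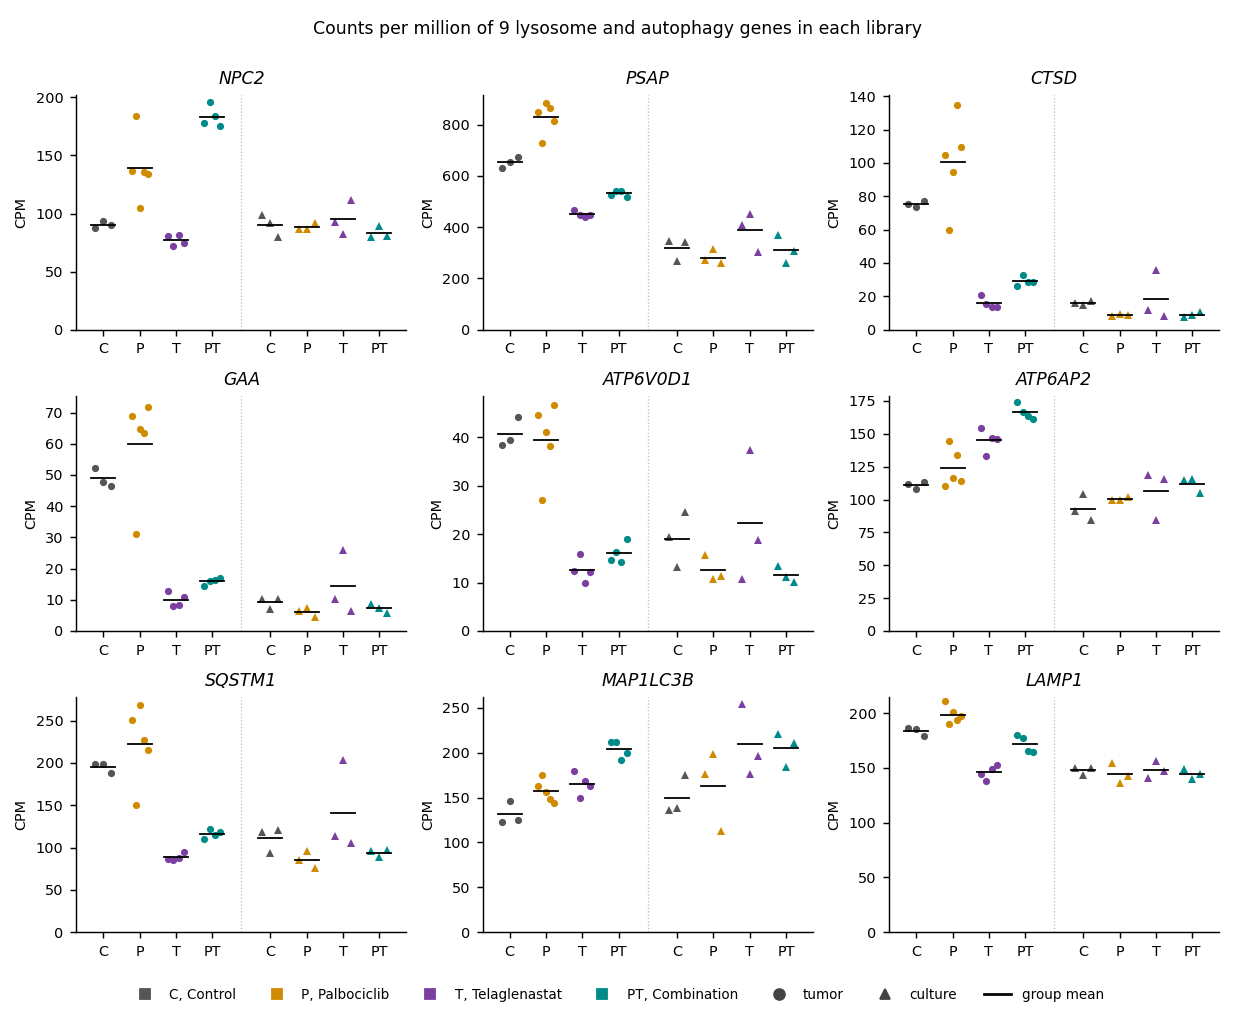
CPM of 9 genes in every library, tumors as circles and cultures as triangles, with a bar at each group mean. GAA and CTSD lie lowest among tumors with Telaglenastat (7.94 to 12.8 and 13.5 to 20.7 CPM), NPC2 lies highest with the combination (176 to 196 CPM), and Telaglenastat culture 2 stands above the other cultures in CTSD, GAA and SQSTM1.

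In cultures grown without drug no member was called in any of the 5 comparisons. TFEB was below the count filter there, so that 41 of the 42 genes were tested. The background was 0% of the 13985 genes tested in either direction, apart from 1 gene (0.00715%) lower in combination than in Control cultures. At an unadjusted p under 0.05 there were 0 members for Palbociclib against Control, 1 for Telaglenastat (MAP1LC3B), 4 for the combination (ATP6V0B, ATP6AP1, MAP1LC3B and GABARAPL1), 0 for the combination against Palbociclib and 8 for the combination against Telaglenastat, and over all genes 592, 898, 895, 277 and 1969. DESeq2 called no member in any of them, and edgeR called 5 lower in the last comparison without Telaglenastat culture 1.

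The culture values bound what could be seen. CTSD was 15.9, 14.5 and 17.2 CPM in Control, 8.45, 9.38 and 8.84 CPM in Palbociclib, 11.9, 36.04 and 7.93 CPM in Telaglenastat and 7.76, 8.52 and 10.4 CPM in combination cultures. The Palbociclib and combination cultures all lay below the Control cultures, and Telaglenastat culture 2 stood far above the other 2. The log2 fold change of CTSD for Palbociclib was -0.84 ± 0.41, adjusted p = 0.795, with a 95% interval of -1.73 to 0.051, and for the combination -0.84 ± 0.41, adjusted p = 0.681, with an interval of -1.73 to 0.053. Both intervals include 0. LAMP1 was within 136 to 156 CPM in all 12 cultures, with a log2 fold change of 0.00 for Telaglenastat (interval -0.19 to 0.20). NPC2 was 98.8, 91.8 and 79.9 CPM in Control and 79.96, 89.1 and 80.3 CPM in combination cultures (-0.12 ± 0.12, adjusted p = 0.789, interval -0.38 to 0.15), with overlapping groups. MAP1LC3B was 136, 139 and 175 CPM in Control, 255, 176 and 197 CPM in Telaglenastat (0.48 ± 0.19, adjusted p = 0.739) and 221, 184 and 211 CPM in combination cultures (0.45 ± 0.19, adjusted p = 0.681), all 6 of these treated cultures lying above the Control cultures, although no call was made. SQSTM1 was 118, 93.8 and 121 CPM in Control, 85.7, 95.7 and 75.8 CPM in Palbociclib, 114, 203 and 105 CPM in Telaglenastat (0.35 ± 0.21, adjusted p = 0.811) and 96.1, 88.5 and 97.2 CPM in combination cultures. TFE3 was 12.2, 14.4 and 16.1 CPM in Control, 9.15, 12.8 and 10.8 CPM in Palbociclib, 16.4, 18.2 and 11.3 CPM in Telaglenastat (0.11 ± 0.24, adjusted p = 0.95) and 13.3, 7.90 and 9.65 CPM in combination cultures. Each treated group of cultures overlapped Control in both genes. TFEB, untested, was 0.493, 0.493 and 1.23 CPM in Control, 0.469, 0 and 0.52 CPM in Palbociclib, 0, 1.12 and 1.39 CPM in Telaglenastat and 0.739, 0.444 and 0.501 CPM in combination cultures.

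Control tumors and Control cultures differed without any drug. Of the 42 genes 14 were higher and 10 lower in tumors, beside 23.1% and 22.8% of all 15466 genes tested over the 28 libraries. The share of lower members (10 of 42) was thus near the background. Tumors hold mouse cells that cultures lack. Macrophage and leukocyte markers summed to 17.1 to 22.5 CPM in Control tumors and 0.616 to 3.42 CPM in Control cultures, each scaled within its own fit. Fibroblast and endothelial markers summed to 241.0 to 291.3 and 7.51 to 27.0 CPM, and colorectal epithelial markers to 2817 to 3363 and 1407 to 1927 CPM. The part of host cells in the differences below was not tested. On the scale shared by tumors and cultures, GAA was 43.5 to 48.8 CPM in tumors and 7.42 to 10.7 CPM in cultures (log2 fold change 2.26 ± 0.33, adjusted p = 3.13e-06). CTSD was 69.3 to 72.1 CPM in tumors and 15.1 to 17.9 CPM in cultures (2.10 ± 0.32, adjusted p = 5.38e-06). Both were called after correction too, at 1.35 and 1.21. ATP6V0D1, at 35.8 to 41.2 against 13.8 to 25.5 CPM (0.94 ± 0.28, adjusted p = 0.00762), lost its call after correction and without Control culture 2. The genes most lowered in tumors were GLA, the alpha-galactosidase, at 20.8 to 25.1 against 37.9 to 44.1 CPM (-0.86 ± 0.20, adjusted p = 0.00102), ATP6V1C1, at 122 to 132 against 205 to 237 CPM (-0.81 ± 0.10, adjusted p = 4.56e-07), and ATP6V0A2, at 21.4 to 25.03 against 30.2 to 42.4 CPM (-0.72 ± 0.15, adjusted p = 0.000202). SQSTM1 was 175 to 187 against 97.5 to 126 CPM in tumors against cultures (0.67 ± 0.18, adjusted p = 0.00333) and TFE3 was 19.9 to 22.5 against 12.6 to 16.8 CPM (0.51 ± 0.19, adjusted p = 0.0279), both with the call lost after correction (0.0082 and -0.21). LAMP1, at 167 to 174 against 149 to 156 CPM (0.16 ± 0.076, adjusted p = 0.0772), and TFEB, at 2.29 to 2.50 against 0.509 to 1.28 CPM (1.64 ± 0.73, adjusted p = 0.0673), were not called. After correction 11 were higher and 12 lower, beside 2762 and 3552 of all 15466 genes. As counted 9 were higher without Control culture 2.

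Whether a drug's difference was larger in tumors than in cultures was tested directly, as the difference of the log2 fold changes. For Palbociclib no member was called, beside 0.356% of all genes called higher and 1.03% lower, with NPC2 at 0.64 ± 0.18, adjusted p = 0.068 and HEXA at 0.58 ± 0.16, adjusted p = 0.0633. Both were called after correction, at 0.75 and 0.56, and 4 members were called without Telaglenastat culture 2.

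For Telaglenastat 3 members were called higher and 14 lower, beside 15.6% and 18.5% of all genes. The largest differences were in GAA, whose log2 fold change was -2.29 in tumors and 0.64 in cultures (difference -2.86 ± 0.45, adjusted p = 0.000109), CTSD with -2.25 and 0.24 (difference -2.42 ± 0.43, adjusted p = 0.000273), and ATP6V0D1 with -1.69 and 0.23 (difference -1.84 ± 0.39, adjusted p = 0.00109). In these genes Telaglenastat culture 2, whose GC slope was 0.418, was the highest culture, at 26.04, 36.04 and 37.3 CPM. Telaglenastat cultures 1 and 3 were at 10.2 and 6.55 CPM for GAA, 11.9 and 7.93 CPM for CTSD, and 10.6 and 18.9 CPM for ATP6V0D1. None of these values was above the highest Control culture. The V1 genes ATP6V1A (0.57 ± 0.12, adjusted p = 0.00105), ATP6V1C1 (0.49 ± 0.14, adjusted p = 0.00975) and ATP6V1B2 (0.48 ± 0.16, adjusted p = 0.0234) differed upward, the last without a call when Control culture 2, Telaglenastat culture 2 or Control tumor 2 was left out. SQSTM1 differed by -1.39 ± 0.25, adjusted p = 0.000246, and TFEB, TFE3 and LAMP1 were not called. After correction 1 was higher, CTSA (0.54, against -0.65 as counted), and 4 lower, GAA (-1.24), ATP6AP1 (-0.80), CTSB (-0.51) and SQSTM1 (-0.46). Over all 15466 genes 229 were higher and 500 lower after correction. The count of members called higher was 8 without Telaglenastat culture 3. Of all genes called here 45.79% were higher, and 31.41% after correction.

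For the combination 1 member was called, NPC2, with a difference of 1.24 ± 0.18, adjusted p = 0.000482, beside 2.11% of all genes higher and 0.795% lower. It was called in all 28 fits that left out 1 library and after correction (1.03). CTSD (-0.43 ± 0.44, adjusted p = 0.611) and GAA (-1.17 ± 0.46, adjusted p = 0.14) were not called. The count of members called higher rose to 5 without Telaglenastat culture 3. Of all genes called here 72.67% were higher, against 50.89% with DESeq2's size factors, 51.59% after the correction and 19.4% with no filter on low counts (241 higher and 1001 lower), so the direction of the calls over all genes depended on these settings.

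**Figure D5:**
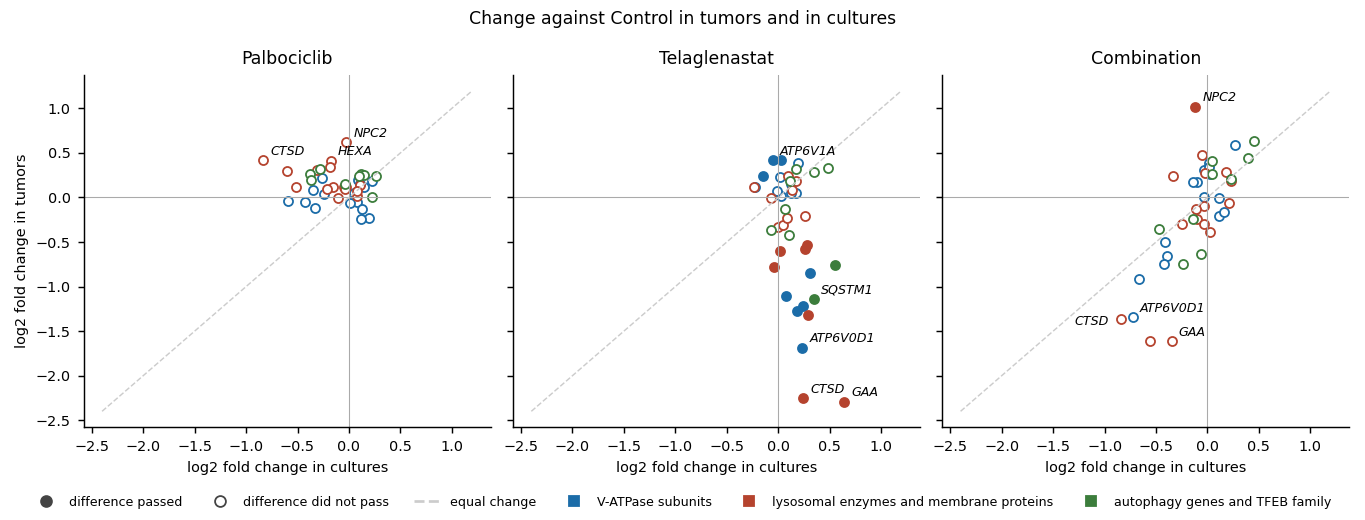
Log2 fold change against Control in tumors (vertical) plotted against that in cultures (horizontal) for each gene tested in both (41 of the 42), 1 panel each for Palbociclib, Telaglenastat and the combination. Filled points are genes whose difference between tumors and cultures passed the test: none for Palbociclib, 17 for Telaglenastat, and NPC2 alone for the combination.

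The wider pathway was read from further genes with the same roles, with log2 fold changes in parentheses, and none of them was called in any comparison of cultures. Over all genes tested, 2.55% were higher and 3.6% lower with Palbociclib, 22.6% and 28.5% with Telaglenastat, 17.6% and 26.9% with the combination, and 8.93% and 9.89% with the combination against Telaglenastat. Counts near these shares, such as the 11 lysosomal genes higher with Telaglenastat and the 13 lower with the combination, are no result about the lists. Of 45 other lysosomal genes tested in tumors, 3 were higher and 2 lower with Palbociclib, led by the sialic acid transporter SLC17A5 (0.43) and the sulfatase IDS (0.34) above, and by the sorting receptor SORT1 (-0.52) and the peptidase CTSV (-0.47) below. With Telaglenastat 11 were higher, led by MFSD8 (0.43) and the fucosidase FUCA1 (0.42), and 18 lower, led by the sulfatase ARSA (-2.65) and the progranulin gene GRN (-2.32). After correction these counts became 2 and 6, beside 952 and 1243 of all 14848 genes. ARSA lost its call (corrected -1.13) and GRN kept it (corrected -1.03). With the combination 12 were higher, led by the ceramidase ASAH1 (0.73) and SLC17A5 (0.69), and 13 lower, led by the sphingomyelinase SMPD1 (-1.72) and NAGLU (-1.53). After correction these counts became 8 and 4, beside 1974 and 1940 of all 14848 genes. Against Telaglenastat the combination had 9 higher, led by GRN (0.91) and the legumain gene LGMN (0.86), and 2 lower, SORT1 (-0.46) and CTSV (-0.43).

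Of 42 other autophagy genes tested in tumors, 2 were higher and 1 lower with Palbociclib, namely the conjugation gene ATG12 (0.52) and the cargo receptor OPTN (0.35) against FNIP2 (-0.69), a partner of folliculin. With Telaglenastat 14 were higher, led by RB1CC1 (0.55) and ATG12 (0.51), both components of the core machinery, and 14 lower, led by ATG101 and the protease ATG4D (both -1.66), with 1 and 1 left after correction. With the combination 11 were higher, led by ATG12 (0.68) and GABARAPL2 (0.56), and 12 lower, led by ATG4D (-1.66) and the lipid transfer protein gene ATG2A (-1.42), with 9 and 3 after correction. Against Telaglenastat the combination had 8 higher, led by ATG101 (0.76) and ATG4A (0.70), and 4 lower, led by FNIP2 (-0.65) and STX17 (-0.51). Of 5 other V-ATPase subunits tested, none was called with Palbociclib, and ATP6V0E2, an e-subunit isoform, fell with Telaglenastat (-1.35, corrected -1.52) and the combination (-1.08, corrected -1.19). TCIRG1, an a-subunit isoform, fell with Telaglenastat (-2.08) and the combination (-1.63), calls that were lost after correction (-0.55 and -0.40), and ATP6V0A4 rose with the combination (2.91, corrected 2.89).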

How the data were processed

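RNA of 16 residual tumors and 12 cultures was sequenced by the authors from strand-specific poly(A) libraries (NEBNext Ultra) as 60-base single reads on a HiSeq2500, base-called with CASAVA 1.8, and aligned and counted per gene with STAR on hg38, per the labels and the study's methods. The deposited values are raw read counts of 58278 genes, of which 22232 had no count in any library. The version of STAR, the annotation release, the strand setting of the counting and the handling of mouse reads are not given in the sources used here, so overlapping and antisense genes may share reads.

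Groups were taken from the labels. Counts were tested with edgeR 4.0.16 (quasi-likelihood test, TMM scaling, filterByExpr with a minimum count of 10) in R 4.3.3, with Benjamini-Hochberg adjustment over all genes tested and a threshold of 0.05. Intervals of 95% used the degrees of freedom of that test. One fit held the 16 tumors (14848 genes), one the 12 cultures (13985 genes), and one all 28 libraries (15466 genes) for comparisons of tumors with cultures. CPM of tumors and of cultures were scaled within the fit of each. TPM used summed exon lengths of GENCODE 29, which matched 57940 genes. The GC content and length correction entered each library's robust trend (splines with 5 and 3 degrees of freedom, MASS 7.3-60.0.1) as an offset. Per the study's methods, every culture was started from a tumor of its own.

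Alternatives were DESeq2 1.42.0 (the tool of the study), its size factors, other filters, other sets of libraries, each library left out in turn, the replicate number as a block, and the correction. The scripts were tested on simulated data. In each comparison values of every library are given for up to 3 of the largest rises and falls that passed and for TFEB, TFE3, SQSTM1, LAMP1 and CTSD. The members and lists were chosen with earlier results of these data known. Depth, between 6273834 and 13815675 counts per library, bears mainly on TFEB and MCOLN1.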

Additional observations from a re-analysis of the deposited data

Results flagged for a closer look

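In groups of 4 or 5 tumors, 126 sets of values (1 member in 1 group) were examined for a tumor far from the others by Dixon's criterion, and 7 stood out. Chance gives about 5%, and the number of flags was near that share. The sets share libraries and are not independent. Palbociclib tumor 2 accounted for 4 of the 7. It was high in ATP6V0E1 (120.5 CPM, the other 4 between 89.42 and 96.14), ATP6V1E1 (124.3 CPM, the others between 111.8 and 115) and GABARAPL1 (66.64 CPM, the others between 46.21 and 52.04), and low in GAA (31.15 CPM, the others between 63.34 and 71.91). This tumor also had the lowest GC slope of its group, whose part was not tested. ATP6V1F was high in Palbociclib tumor 5 (59.77 CPM), GLB1 was high in Telaglenastat tumor 1 (46.35 CPM) and ATG7 was low in Telaglenastat tumor 4 (16.67 CPM).

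The difference between the Telaglenastat effect in tumors and that in cultures passed edgeR's test of the difference in 17 genes. It was negative for GAA (-2.8611), CTSD (-2.4248), ATP6V0D1 (-1.8354), MCOLN1 (-1.5269), SQSTM1 (-1.3933), ATP6V0B (-1.3663), ATP6AP1 (-1.3662), ULK1 (-1.2158), ATP6V0C (-1.0877), ATP6V1F (-1.06), CTSB (-0.75034), PSAP (-0.72707), CTSA (-0.65441) and CTSZ (-0.52624), and positive for ATP6V1A (0.56795), ATP6V1C1 (0.48644) and ATP6V1B2 (0.48487), all on the log2 scale. For the combination the same test passed in NPC2 (1.2355).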

How the results depend on the processing

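Counts of the 42 genes called are given here, main value first. The GC content and length correction took the genes called lower from 19 to 7 for Telaglenastat against Control tumors, from 16 to 6 for the combination against Control and from 19 to 6 for the combination against Palbociclib. For the difference between tumors and cultures it took the Telaglenastat counts from 3 to 1 higher and from 14 to 4 lower, and those called higher for Palbociclib from 0 to 2 and for the combination from 1 to 2. Of 150 called fold changes, 61 kept their call under it, 54 lost it and 35 turned sign. Corrected log2 fold changes of the latter are in parentheses. For Telaglenastat against Control tumors it turned the sign of ATP6V0C (0.33), ATP6V1C1 (-0.10), LAMP2 (-0.14), CTSA (0.42), CTSZ (0.39), PSAP (0.040), TFE3 (0.70), ULK1 (0.69) and ATG5 (-0.054). For the combination against Control tumors it turned the sign of ATP6V0C (0.43), CTSA (0.71), CTSZ (0.53), PSAP (0.16), TFE3 (0.58), SQSTM1 (0.086), ULK1 (0.58) and ATG5 (-0.013). For the combination against Palbociclib tumors it turned the sign of ATP6V0A1 (0.20), ATP6V0C (0.42), ATP6V1B2 (-0.019), LAMP2 (-0.030), CTSA (0.43), CTSZ (0.44), TFE3 (0.33), ULK1 (0.48) and ATG5 (-0.080). For Control tumors against Control cultures it turned the sign of ATP6V0C (-0.37), CTSA (-0.25), TFE3 (-0.21) and ULK1 (-0.049). For the Telaglenastat effect in tumors less that in cultures it turned the sign of ATP6V0C (0.46), ATP6V1B2 (-0.0047), CTSA (0.54), CTSZ (0.51) and ULK1 (0.21). With the replicate block added to the correction, the Telaglenastat counts against Control were 6 higher and 6 lower, those of the combination 9 and 3 against Control and 5 and 3 against Palbociclib, and 1 was lower against Telaglenastat. For the differences between tumors and cultures this fit called 1 higher for Palbociclib, 0 higher and 3 lower for Telaglenastat, and 2 higher for the combination. Its log2 fold changes that turned sign are again in parentheses. In Telaglenastat against Control tumors the sign turned in ATP6V0C (0.26), ATP6V1C1 (-0.092), LAMP2 (-0.11), CTSA (0.42), CTSZ (0.42), PSAP (0.048), TFE3 (0.68), ULK1 (0.65) and ATG5 (-0.067). In the combination against Control tumors the sign turned in ATP6V0C (0.37), CTSA (0.71), CTSZ (0.55), PSAP (0.17), TFE3 (0.56), SQSTM1 (0.092), ULK1 (0.53) and ATG5 (-0.026). In the combination against Palbociclib tumors the sign turned in ATP6V0A1 (0.17), ATP6V0C (0.44), ATP6V1B2 (-0.055), LAMP2 (-0.051), CTSA (0.40), CTSZ (0.41), TFE3 (0.31), ULK1 (0.46) and ATG5 (-0.028). In Control tumors against Control cultures the sign turned in ATP6V0C (-0.38), CTSA (-0.25), TFE3 (-0.20) and ULK1 (-0.048). In the Telaglenastat effect in tumors less that in cultures the sign turned in ATP6V0C (0.40), CTSA (0.53), CTSZ (0.54) and ULK1 (0.18). The replicate block alone, for example, gave 5 higher for Palbociclib against Control, moved no count by over 1.5 times, and 144 of 150 called fold changes kept their call. Same-numbered tumors correlated at -0.128 to 0.0896 and same-numbered cultures at -0.423 to 0.14, over all genes after removal of group means. Of 16 tumors 6, and of 12 cultures 1, correlated best with their own number. No pairing by number was seen, but groups this small could not exclude a weak one.

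In 1 fit of all 28 libraries the counts were 2 higher for Palbociclib against Control (4 before), 10 lower for the combination against Control (16), 17 higher against Palbociclib (9), 6 higher and 1 lower against Telaglenastat (15 and 2), and 3 lower for combination against Telaglenastat cultures (0). That fit moved the median log2 fold change of all genes from 0.03 to 0.13 for Telaglenastat against Control and from 0.02 to 0.12 for the combination against Palbociclib. DESeq2's Wald test called 15 higher for the combination against Palbociclib (9) and 3 for the Palbociclib difference between tumors and cultures (0), and DESeq2's size factors within edgeR also gave 15 for the former. At least 10 counts in every library left 6 higher for Telaglenastat (10) and gave 2 higher for each of the Palbociclib (0) and combination (1) differences. With no filter 7 were lower for combination against Telaglenastat cultures (0) and 6 lower for Control tumors against cultures (10), and the differences between tumors and cultures had 1 higher for Palbociclib (0), 0 higher for Telaglenastat (3) and 2 lower for the combination (0). Fits of only the groups compared gave 3 higher for the Palbociclib difference (0) and 9 higher and 1 lower for the combination difference (1 and 0).

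Leaving out 1 library at a time gave 2 to 7 higher and 0 to 1 lower for Palbociclib against Control, 6 to 10 higher for Telaglenastat against Control, 9 to 17 higher and 1 to 3 lower for the combination against Telaglenastat, 0 to 5 lower for combination against Telaglenastat cultures, and 9 to 17 higher for Control tumors against cultures. The differences between tumors and cultures had 0 to 4 higher for Palbociclib, 2 to 8 higher for Telaglenastat, and 1 to 5 higher and 0 to 1 lower for the combination. Over all genes, the correction took the calls for Telaglenastat against Control from 3352 to 952 higher and from 4238 to 1243 lower. No alternative without the correction turned the sign of a called fold change, and the cause of these changes was not tested. With no filter the share of higher calls over all genes went from 41.47% to 53.21% for Palbociclib against Control tumors, from 50.26% to 61.68% for Control tumors against cultures, from 25.58% to 48.19% for the Palbociclib difference and from 45.79% to 22.3% for the Telaglenastat difference. Depth limits TFEB, with 2 to 24 reads in Control, Telaglenastat and combination tumors, and MCOLN1, and groups of 3 to 5 libraries leave wide intervals in cultures.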
